A study of Mus musculus with 2 samples.

Results

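The genes described are the epidermal growth factor (EGF) family ligands Egf, Areg, Ereg, Btc, Hbegf, Tgfa and Nrg1 and the ErbB receptors Egfr, Erbb2 and Erbb3. They were taken by name, as the non-control spots whose gene name in the scanner files was one of these symbols, which gave 10 genes of 27670 on the array, 27 probes of 41174 and 72 spots of 43379. RNA came from cultured GIF-5 cells, mouse gastric epithelial cells of genotype Runx3-/-p53-/-, grown in DMEM with 10% bovine serum. A PE-labelled antibody against CD133 (prominin-1, encoded by Prom1) was used to sort the cells into a CD133-positive and a CD133-negative fraction, so that both fractions carry both deletions. Two-colour Agilent arrays compared the fractions directly, with Cy3-labelled CD133-positive and Cy5-labelled CD133-negative RNA on each of 2 arrays. GIF-5 is a single line, and its labels name the arrays biological replicates without saying whether they came from separate cultures or sorts. The p-values thus measure only spread between these 2 arrays, which may be technical. For each gene, limma moderated that spread toward the spread over all tested genes. Because both arrays carried the same dye orientation, a dye effect and a difference between the fractions cannot be told apart for any gene.

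EGF-family ligands are made as membrane-anchored precursors that proteases of the ADAM family cut free. The released ligand joins ErbB receptors into pairs, and the paired receptor tyrosine kinases switch on the RAS-MAPK and PI3K-AKT cascades. Egf, Areg and Tgfa bind Egfr, while Btc, Ereg and Hbegf bind Egfr and Erbb4. Nrg1 binds Erbb3 and Erbb4. Erbb2 has no known ligand of its own and acts as the preferred partner of the others, and Erbb3 has little kinase activity and signals through its partners. In the stomach these ligands control the growth of the epithelium, its repair and its differentiation, with Tgfa and Egfr known for their part in mucous cell expansion.

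Differences are given on the log2 scale as CD133-positive over CD133-negative, so a ratio above 0 is brighter in CD133-positive cells. Each mean is over 2 arrays and stands with its moderated standard error (± SE, n = 2) and an adjusted p from limma, with 0.05 as the threshold. A level is the normalised log2 intensity of 1 probe in 1 channel. It can be compared between the fractions on that probe within an array, but not between probes or genes. Levels were not scaled between the arrays, except for the bounds given for Prom1 and Cdh5. A gene stands for its brightest tested probe. To be tested, a probe had to clear the background flag of the scanner software (well above background) on both arrays in at least one fraction. Bulk RNA was measured, so a lower level can mean fewer cells with the transcript or less of it per cell, and these cannot be told apart.

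The label check used Prom1, whose ratio was 3.78 (limma adjusted p = 0.0095), and on neither array did its probe clear background in CD133-negative cells. As a bound, Prom1 was at least 12-fold higher in CD133-positive cells. That bound used levels scaled between the arrays, with the dimmer fraction at no less than the lowest level well above background. Between 23911 and 25636 of 45018 spots per channel and array were well above background, and no spot was saturated. Of 15267 tested genes, 256 passed the threshold, with 214 higher and 42 lower in CD133-positive cells. That split was 317 to 192 after scaling the ratios between arrays, 2435 to 1572 with centring on the median of the tested genes in place of loess, and 483 to 9664 with centring on all non-control probes, which moved the median ratio of tested genes from -0.03 to -0.75. Across tested genes the ratios of both arrays had a Pearson r of 0.771, and the median gap between arrays was 0.25. Genes are not independent replicates. Epithelial markers were tested for 5 of 7 genes (Cdh1, Krt8, Krt18, Krt19 and Cldn7) with 0 called, while Epcam and Cldn4 were not well above background in either fraction. Krt8, Krt18 and Krt19 were lower on both arrays, with mean ratios of -0.78, -0.54 and -0.79. Cdh1 and Cldn7 were higher on both, at 0.42 and 0.38. Gastric markers were tested for 6 of 9, with Tff1 and Gkn2 called higher. Of the endothelial markers, Pecam1, Kdr and Tek were not well above background in either fraction. Vwf was higher by 3.75 (limma adjusted p = 0.0117) and Cdh5 by 2.61 (limma adjusted p = 0.0425), or at least 5.81-fold by the same kind of bound. The mean level of these 2 genes was 9.25 and 9.82 in CD133-positive cells against 6.34 and 6.37 in CD133-negative cells, and their part in the results was not tested. Of 6 blood markers 4 were tested and of 6 fibroblast markers 2 were, with 0 called in each list, and Ptprc, Cd52, Col3a1, Dcn, Pdgfra and Lum were not well above background. The tested fibroblast markers were Col1a1, with a ratio of -1.25 (limma adjusted p = 0.0667), and Col1a2, with 0.08 (limma adjusted p = 0.755).

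All 10 genes had a tested probe, and 21 of their 27 probes were tested. The tested Ereg probe lay on the strand opposite to the listed transcript, so whether it reads Ereg is not known. The counts and medians below include it. None of the 10 passed the limma threshold, where 1.68% of all tested genes did. At an unadjusted p under 0.05 there were 3 of 10 genes, Hbegf, Egfr and Nrg1, beside 27.9% of all tested genes. Egf, Btc and Hbegf were higher in CD133-positive cells on both arrays (32.6% of all tested genes were), and Ereg, Tgfa, Nrg1 and Egfr were lower on both (39.7%). Areg, Erbb2 and Erbb3 had ratios of opposite sign on the arrays, as 27.7% of tested genes did. No gene of the family was at least 2-fold higher on both arrays or at least 2-fold lower on both, where 2.5% and 2.11% of all tested genes were. The median ratio of the 10 genes was 0.03, against -0.03 over all tested genes, but it was 0.11 on array 1 and -0.46 on array 2. The count of 0 changed where loess was replaced by centring. With centring on the median of all non-control probes in its place, Egfr, Nrg1, Tgfa and Erbb2 were called lower, where 66.5% of all tested genes were called. Relative to the median of tested genes in that setting, Erbb2 was at -0.13. With centring on the tested genes Egfr and Nrg1 were called lower and Egf higher, where 26.2% of all tested genes were called.

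**Figure D1:**
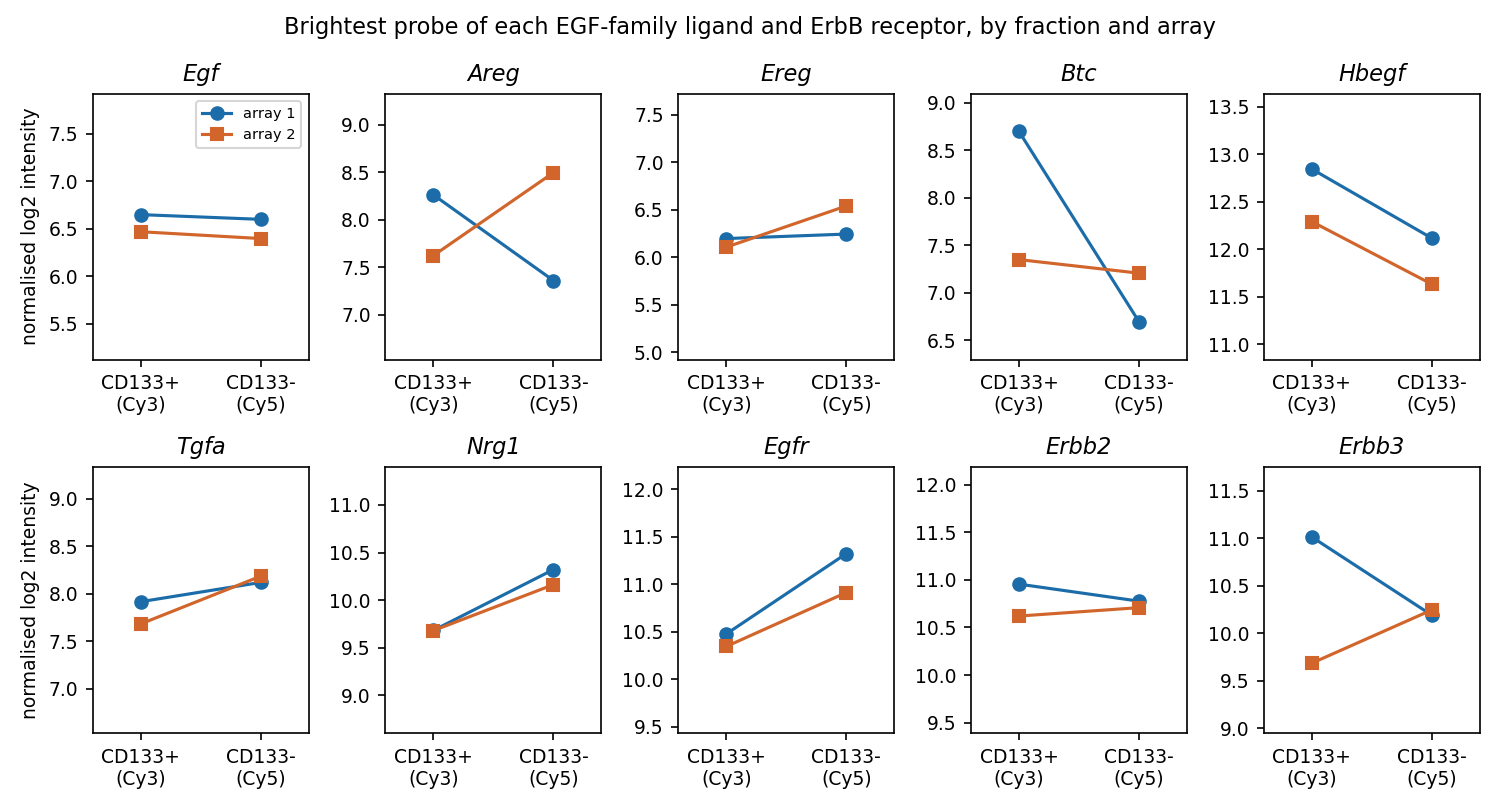
Normalised log2 intensity of the brightest tested probe of each of the 10 genes (vertical axis) in CD133-positive (Cy3) and CD133-negative (Cy5) cells, with 1 line per array and a vertical axis of equal length but different start in each panel. The lines of Hbegf slope down on both arrays and those of Nrg1 and Egfr slope up on both. Those of Areg, Erbb2 and Erbb3 slope in opposite directions. With centring on all non-control probes in place of loess, Hbegf had a ratio of -0.32, or 0.43 relative to the median of tested genes.

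Upstream sequence is shown for 3 genes, chosen because Btc had the highest mean ratio of the family, Egfr the lowest, and Areg the ratios that turned from clearly positive to clearly negative between the arrays. Each run is the 250 bases before the RefSeq start of the gene, 5′ to 3′ on the gene's strand, in build GRCm38.p6, and 6 of the 10 genes had an entry in that table. Capitals mark matches on either strand to a cAMP response element (with the letters TGACGTCA), to the letters TGAGTCA of an AP-1 site, to the letters GGGCGG of a GC box or to the letters TATAAA of a TATA box, and no match overlaps another in these windows.
Areg, chr5:91139349-91139598, + strand: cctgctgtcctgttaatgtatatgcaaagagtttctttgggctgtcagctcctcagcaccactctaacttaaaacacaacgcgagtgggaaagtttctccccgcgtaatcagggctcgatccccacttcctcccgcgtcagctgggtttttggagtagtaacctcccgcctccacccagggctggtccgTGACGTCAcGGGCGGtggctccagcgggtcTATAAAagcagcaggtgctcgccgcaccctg
Btc, chr5:91402995-91403244, - strand: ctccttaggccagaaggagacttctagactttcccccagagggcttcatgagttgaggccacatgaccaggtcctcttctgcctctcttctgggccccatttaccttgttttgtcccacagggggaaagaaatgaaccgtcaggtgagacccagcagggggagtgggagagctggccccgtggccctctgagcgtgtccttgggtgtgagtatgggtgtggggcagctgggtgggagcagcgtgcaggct
Egfr, chr11:16751953-16752202, + strand: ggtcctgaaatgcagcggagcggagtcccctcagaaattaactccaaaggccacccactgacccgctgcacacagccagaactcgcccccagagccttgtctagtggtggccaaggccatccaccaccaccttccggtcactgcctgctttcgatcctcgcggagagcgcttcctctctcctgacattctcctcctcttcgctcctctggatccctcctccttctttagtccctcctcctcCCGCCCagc
The Areg window held a cAMP response element starting 61 bases before the gene's start, a GC box starting 52 bases before it and a TATA box starting 31 bases before it. Of 32851 windows of the same length, 1.55% held the first of these motifs, 32.7% a GC box and 12.4% a TATA box. AP-1 sites were in 4.46% of windows and in none of these 3. The Egfr window held 1 GC box on the opposite strand, 9 bases before the start, and no TATA box, and the Btc window held none of the 4 motifs. GC content was 57.2% for Areg, 59.6% for Btc and 60.8% for Egfr, against a median of 52.4% over all windows. These matches describe the letters only.

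Among the ligands of Egfr, Hbegf, a heparin-binding growth factor of wound repair, had nearly the same ratio on both arrays. Its single probe read 12.85 on array 1 and 12.29 on array 2 in CD133-positive cells, and 12.12 and 11.63 in CD133-negative cells. The CD133-positive level was thus the higher on each array. The ratios were 0.73 and 0.66, a mean of 0.69 ± 0.14 or 1.62-fold, which did not pass the threshold (limma adjusted p = 0.0875). Without loess, the ratio was 0.42 when centred on the tested genes and -0.32 when centred on all non-control probes. Relative to the median of tested genes, Hbegf was at 0.43 in both settings. The gap between its arrays was smaller than that of all but 16.3% of tested genes.

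Btc encodes betacellulin, which binds Egfr and Erbb4. The brighter of its 2 probes, at chr5:91346189-91346248 in the coordinates of the scanner files, whose build the files do not name, read 8.70 and 7.35 in CD133-positive cells and 6.70 and 7.21 in CD133-negative cells. The CD133-positive level was the higher on each array, but the ratio was 2.00 on array 1, against 0.14 on array 2. The mean was 1.07 ± 0.49, or 2.1-fold (limma adjusted p = 0.254), and 99.4% of tested genes had a smaller gap between arrays. In the deposited processed signals the mean ratio was 1.66. The second probe for the same transcript, 1.08 kb away, was not well above background in either fraction.

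Areg, the ligand amphiregulin, had no common direction. In CD133-positive cells its probe (chr5:91129331-91129390 in the files) read 8.26 on array 1 and 7.62 on array 2, and in CD133-negative cells 7.36 and 8.50. The CD133-negative level was thus the lower on array 1 and the higher on array 2. Ratios of 0.90 and -0.87 gave a mean of 0.01 ± 0.47 (limma adjusted p = 0.988). The gap of 1.77 between the arrays was larger than that of 99.2% of tested genes. The mean says little about this gene, since it describes neither array.

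Tgfa, transforming growth factor alpha, and Egf, the family's founding member, were each read by a probe printed in 10 spots per array. The Tgfa probe read 7.92 and 7.68 in CD133-positive cells and 8.12 and 8.19 in CD133-negative cells, the higher level on each array. Its ratios of -0.20 and -0.50 averaged -0.35 ± 0.16 (limma adjusted p = 0.241). The SD among its 10 spots was 0.06 on array 1 and 0.03 on array 2, below the distance between the arrays. A second, dimmer Tgfa probe 2.65 kb away had ratios of 0.22 and -0.34, so the probes differed in sign on array 1. Egf was the most even gene of the family, at 6.65 and 6.47 in CD133-positive and 6.60 and 6.40 in CD133-negative cells. Its probe was dim. Raw Cy3 brightness was 71.01 and 68.49, against 49.24 and 52.4 for the Btc probe that was not well above background. In the deposited processed signals the Egf ratio was 0.17. The main ratio of Egf was 0.06 ± 0.14 (limma adjusted p = 0.829). For Egf the ratio was 0.65 with centring on the tested genes (limma adjusted p = 0.0469, in a range of 0.0469 to 0.885 over the alternatives). With centring on all non-control probes it was -0.09, or 0.66 relative to the median of tested genes.

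Ereg, encoding epiregulin, was near the limit of detection. Its tested probe, designed to a cDNA (AK019057) and placed at chr5:91040155-91040214 on the - strand, cleared background on both arrays in CD133-negative cells and on neither in CD133-positive cells. It read 6.24 and 6.54 in CD133-negative cells and 6.20 and 6.11 in CD133-positive cells. The mean ratio was -0.24 ± 0.17, or 0.847-fold (limma adjusted p = 0.426). Its CD133-positive side is a measured value that was not well above background. With centring on the tested genes in place of loess the ratio was 0.52, and in the deposited processed signals it was -1.86. The probe designed to the Ereg transcript NM_007950 lay 40.75 kb away on the opposite strand and was not well above background in either fraction. Thus the value listed under Ereg does not come from a probe on the strand of that transcript.

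Nrg1 encodes neuregulin 1, the ligand of Erbb3 and Erbb4, and had 5 probes, all tested. The brightest, at chr8:30617036-30617095, read 9.68 on both arrays in CD133-positive cells and 10.32 and 10.16 in CD133-negative cells. On each array the CD133-negative level was thus the higher. The ratios were -0.64 and -0.48, a mean of -0.56 ± 0.14 or 0.678-fold (limma adjusted p = 0.114). Probes 14.89, 27.03 and 33.98 kb from it had mean ratios of -0.59, -0.35 and -0.45, each negative on both arrays. The dimmest probe, designed to XM_900817, read -0.38 and 0.41 and cleared background in CD133-positive cells on 1 array. Its mean of 0.02 turns the sign if it stands for the gene. Of the 5 probes, 4 were thus lower in CD133-positive cells on both arrays, and they share their 2 RNA pairs, so they are not replicates of the comparison.

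Egfr, the receptor of most of these ligands, had the lowest ratio of the family. Its brightest probe, designed to transcript NM_207655 at chr11:16865821-16865880, was printed in 10 spots and read 10.48 and 10.35 in CD133-positive cells and 11.32 and 10.91 in CD133-negative cells. On both arrays the CD133-negative level was the higher. The ratios were -0.84 and -0.57, a mean of -0.71 ± 0.15 or 0.613-fold, which did not pass the threshold (limma adjusted p = 0.0976). The 10 spots lay between -0.89 and -0.81 on array 1 and between -0.63 and -0.51 on array 2. Repeated spots were thus closer to each other than the arrays were.

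The Egfr probes did not all give that value. A second probe to NM_207655, 1.63 kb before the brightest, had ratios of -0.57 and -0.06, and a probe to the cDNA AK033431, 3.82 kb beyond it, had -0.47 and -0.28. Both were negative on both arrays. The probes designed to the other listed transcript, NM_007912, lay 26.43 and 30.27 kb before the brightest. The first of them, also in 10 spots, had ratios of 0.09 and -0.01, with spots between 0.03 and 0.13 on array 1 and between -0.04 and 0.03 on array 2, and the second had -0.12 and -0.02. On neither array did the spots of that probe reach those of the brightest probe. The difference between the probes was not tested. The sixth probe, 158.18 kb before, was not well above background in either fraction. Averaged over the 5 tested probes, the Egfr ratio was -0.29 (limma adjusted p = 0.271, with 0.00707 to 0.526 over all alternatives). With centring on all non-control probes the brightest probe had -1.63, or -0.885 relative to the median of tested genes.

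**Figure D2:**
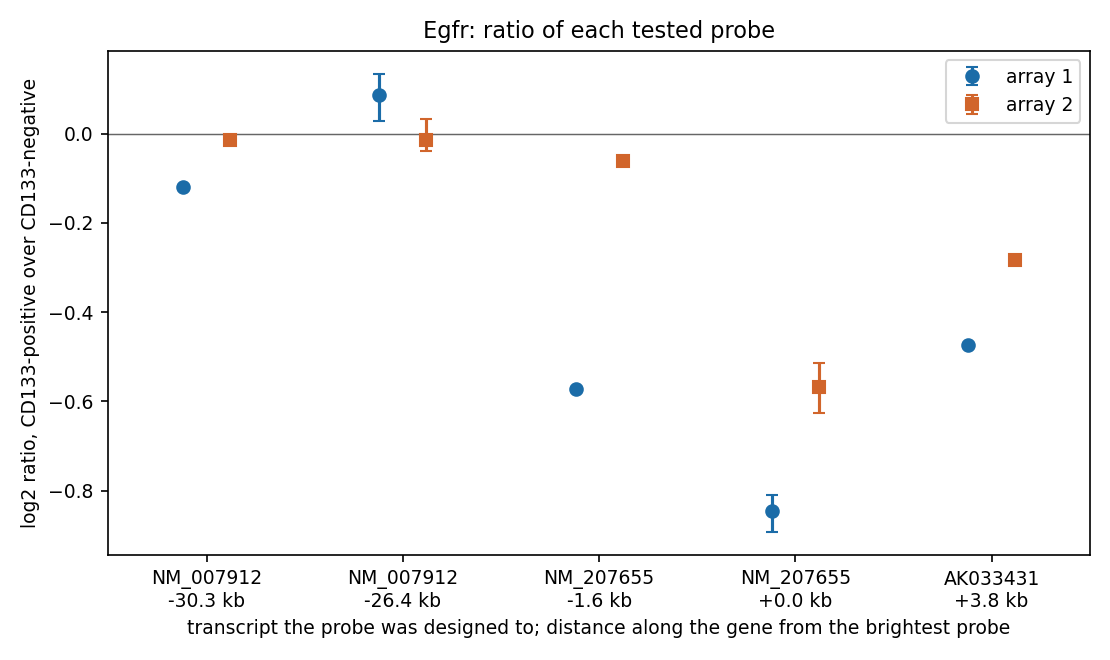
Log2 ratio of CD133-positive over CD133-negative cells (vertical axis) for the 5 tested Egfr probes, ordered by distance along the gene from the brightest probe in kb and labelled with the transcript each was designed to (horizontal axis). Points are the mean of a probe's spots on 1 array and bars the range over 10 spots where the probe was repeated; the 3 probes on the right are below 0 on both arrays and both probes on the left are within 0.12 of 0.

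Erbb2, the partner receptor, was close to equal in both fractions. Its brighter probe (chr11:98545828-98545887, 10 spots) read 10.96 and 10.62 in CD133-positive cells and 10.78 and 10.71 in CD133-negative cells. The CD133-positive level was the higher on array 1 and the lower on array 2. The ratio was 0.05 ± 0.15 (limma adjusted p = 0.89), from 0.18 on array 1 and -0.09 on array 2. The other probe, 2.28 kb away, had ratios of 0.32 and 0.11. Centring in place of loess gave -0.15 over the tested genes and -0.88 over all non-control probes. Relative to the median of tested genes, both settings gave -0.13.

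Erbb3, the neuregulin receptor, went in opposite directions on the arrays. Its brightest probe, designed to XM_972868 at chr10:128069461-128069520, read 11.01 and 9.68 in CD133-positive cells and 10.19 and 10.24 in CD133-negative cells. The CD133-negative levels were nearly equal, and the CD133-positive ones lay on either side of them. Ratios of 0.82 and -0.56 gave a mean of 0.13 ± 0.38 (limma adjusted p = 0.868), and 98.1% of tested genes had a smaller gap between arrays. Of the 4 probes designed to NM_010153, 3 were not well above background in either fraction. The fourth cleared background in CD133-positive cells on 1 array and had ratios of 0.19 and -0.04. The large ratios of Erbb3 thus came from 1 probe. The 1 other tested probe was near background, at 6.43 and 6.16 in CD133-positive and 6.24 and 6.20 in CD133-negative cells. A probe this dim cannot decide whether those ratios hold.

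**Figure D3:**
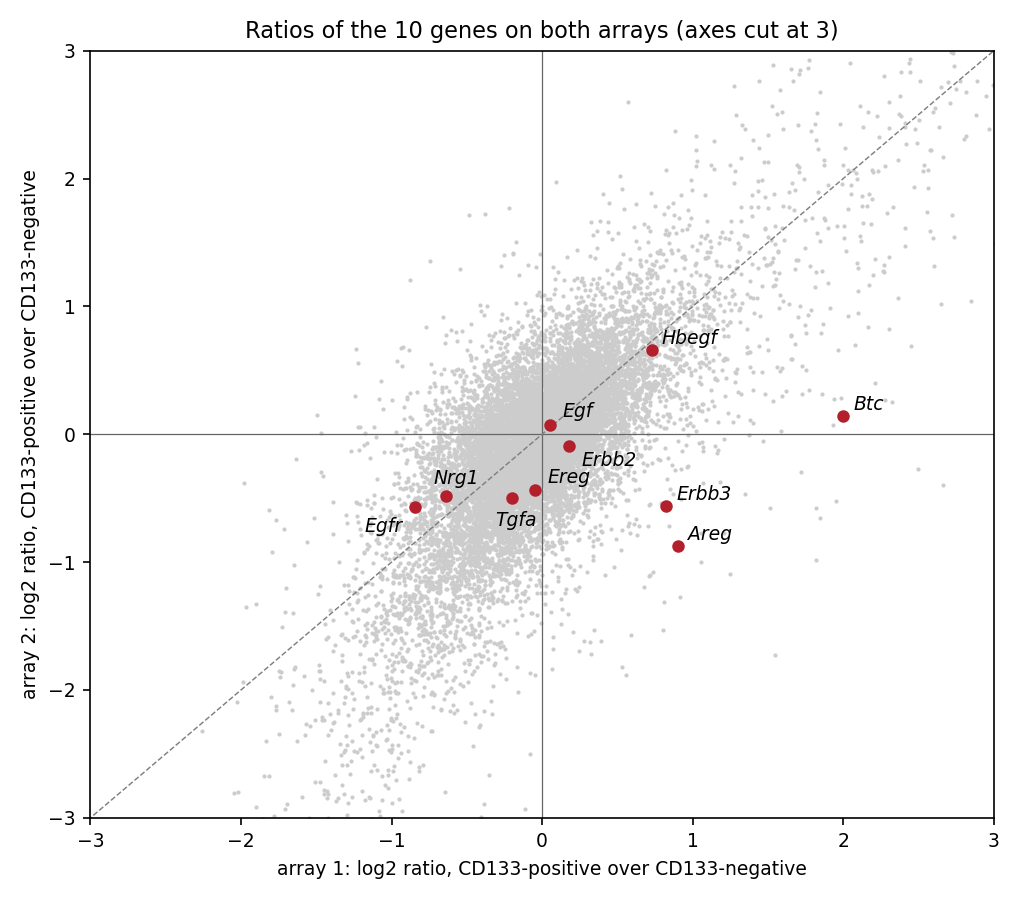
Log2 ratio of CD133-positive over CD133-negative cells on array 1 (horizontal axis) and array 2 (vertical axis) for all tested genes (grey) and the 10 genes of the family (red), with a dashed line where both arrays are equal; 152 tested genes lie beyond the axes, which end at 3. Egf, Hbegf and Nrg1 lie closest to the dashed line, while Btc, Areg and Erbb3 lie far below it, with gaps of 1.86, 1.77 and 1.38 between the arrays.

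Areg, Btc and Erbb3 were all higher on array 1 than on array 2. For Btc and Erbb3 the CD133-positive level differed more between the arrays, by over 1 on the log2 scale, and for Areg the CD133-negative level did. Levels were not scaled between arrays, so which fraction changed was not tested. Areg, Btc and Erbb3 each rest on a probe with 1 spot per array. So do Hbegf and Nrg1, whose gaps between arrays were 0.07 and 0.16. The genes read by 10 repeated spots, Egf, Tgfa, Egfr and Erbb2, had gaps of at most 0.30.

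The other genes of the pathway were taken from 6 lists of 77 genes, of which 70 were tested. Of these, 2 passed the threshold, both higher in CD133-positive cells, and 0 were lower (1.4% and 0.275% of all tested genes were). The 2 genes, Nrg4 and Lrig3, encode a ligand and a transmembrane protein placed here in the list of receptor-level inhibitors. Of the 70 genes, ratios were higher on both arrays for 23, lower on both for 35 and opposite for 12, with a median of -0.11. Over all tested genes the shares were 32.6%, 39.7% and 27.7%, and the median was -0.03. The difference from these shares was not tested. At an unadjusted p under 0.05 there were 22 of 70, near the share over all tested genes (27.9%), and the lists one by one had 1 to 5. The count of called genes changed with the normalisation, as 56 pathway genes were called with centring on all non-control probes (66.5% of all tested genes) and 17 with centring on the tested genes (26.2%).

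Nrg4, neuregulin 4, a ligand of Erbb4, read 9.04 and 8.96 in CD133-positive cells and 6.85 and 6.89 in CD133-negative cells. The fractions stood apart on both arrays. Its ratios were 2.19 and 2.07, a mean of 2.13 ± 0.14 or 4.38-fold (limma adjusted p = 0.0231). The mean was 3.003 in the deposited processed signals and 1.51 with centring on all non-control probes. The call was lost without a filter on dim probes (limma adjusted p = 0.0645) and without moderation of the variance (0.482), in a range of 0.00707 to 0.482 over the alternatives. In both of these settings the Nrg4 ratio itself stayed at 2.13, and only the fit over all genes changed. Its receptor Erbb4 had a ratio of 0.04 ± 0.14 (limma adjusted p = 0.892). With centring in place of loess it was -0.08 over the tested genes and -0.81 over all non-control probes. In the latter setting Erbb4 was called lower (limma adjusted p = 0.0108, in a range to 0.917 over the alternatives). Relative to the median of tested genes there, Erbb4 was at -0.06. The ligand Epgn had ratios of 0.06 and -0.22, and Nrg2 and Nrg3 were not tested.

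Lrig3 is a transmembrane protein of the LRIG family, whose member Lrig1 is known to restrain ErbB receptors. It read 11.55 and 11.63 in CD133-positive cells and 7.22 and 8.71 in CD133-negative cells. The CD133-negative level differed more between the arrays, but levels were not scaled between arrays. The ratios of 4.33 and 2.92 gave a mean of 3.62 ± 0.38, or 12.3-fold (limma adjusted p = 0.0497). This call was lost with the deposited processed signals (limma adjusted p = 0.052), with the dimmest tested probe (0.0731), without the filter (0.122) and without moderation (0.526), while the lowest adjusted p over the alternatives was 0.00774. With the dimmest tested probe, without the filter and without moderation, the same Lrig3 probe stood for the gene and its ratio stayed at 3.62. Only the fit over all genes changed there. Lrig3 was the 1 called gene among 8 tested in the list of receptor-level inhibitors, whose median ratio was 0.18. Whether Lrig3 itself inhibits these receptors was not tested. Sh3kbp1, an adaptor of receptor uptake, had a ratio of -1.16 (limma adjusted p = 0.08). Errfi1, a direct inhibitor of the Egfr kinase, had 0.83 (limma adjusted p = 0.116). With centring on all non-control probes Errfi1 had -0.22, or 0.53 relative to the median of tested genes.

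Genes of ligand shedding numbered 6 tested of 7, with 0 called by limma (2 at an unadjusted p under 0.05), 4 lower on both arrays and a median ratio of -0.31. Of all tested genes, 27.9% were at an unadjusted p under 0.05 and 39.7% were lower on both arrays. The lowest were the protease Adam9 at -0.74 and the inactive rhomboids Rhbdf2 and Rhbdf1, which guide the shedding protease Adam17, at -0.58 and -0.46. Their limma adjusted p ran from 0.126 to 0.18. Genes of the adaptors and the RAS-MAPK cascade had 18 tested of 19 and 0 called by limma (5 at an unadjusted p under 0.05), with a median of -0.22. The kinase Map2k1 had a ratio of 1.15 and the phosphatase Ptpn11 had -0.67, with limma adjusted p of 0.0607 and 0.0915. Map2k1 was at least 2-fold higher on both arrays and was called under 5 alternatives, among them scaling between arrays (limma adjusted p = 0.0468, in a range of 0.0248 to 0.5). With centring on all non-control probes its ratio was 0.16, or 0.91 relative to the median of tested genes.

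The PI3K-AKT, phospholipase C, SRC and STAT genes were all tested, 19 of 19, with 0 called by limma. There were 5 at an unadjusted p under 0.05, beside 27.9% of all tested genes. Their median was -0.32, with 14 lower on both arrays and 3 higher on both, beside 39.7% and 32.6% of all tested genes. The lowest, Plcg2, a phospholipase that acts below receptor kinases, had ratios of -1.02 and -2.15, a mean of -1.58 ± 0.32 (limma adjusted p = 0.0888). The PI3K regulatory subunit Pik3r1 had -0.57, which did not pass the threshold (limma adjusted p = 0.136).

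Genes known to respond to ERK activity, the end of the RAS-MAPK cascade, had 16 tested of 18 and 0 called by limma, with 5 at an unadjusted p under 0.05. As many were higher on both arrays as were lower on both, 6 and 6, and their median ratio was 0.30 on array 1 and -0.23 on array 2. Of all tested genes, 32.6% were higher on both, 39.7% lower on both and 27.9% at an unadjusted p under 0.05. The immediate-early factor Egr1 had ratios of 1.11 and 0.92, a mean of 1.02 ± 0.14 (limma adjusted p = 0.0667), and was called with an intensity trend in the variance and with 4 channels as separate samples. Cyclin D1 (Ccnd1), the G1 cyclin, had -0.95 (limma adjusted p = 0.0902), and Phlda1 had 0.60 (limma adjusted p = 0.103). With centring on all non-control probes Egr1 had a ratio of -0.10 and Phlda1 -0.46. Relative to the median of tested genes in that setting they were at 0.65 and 0.29. Within the list, then, genes with the larger ratios stood on both sides of 0.

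**Figure D4:**
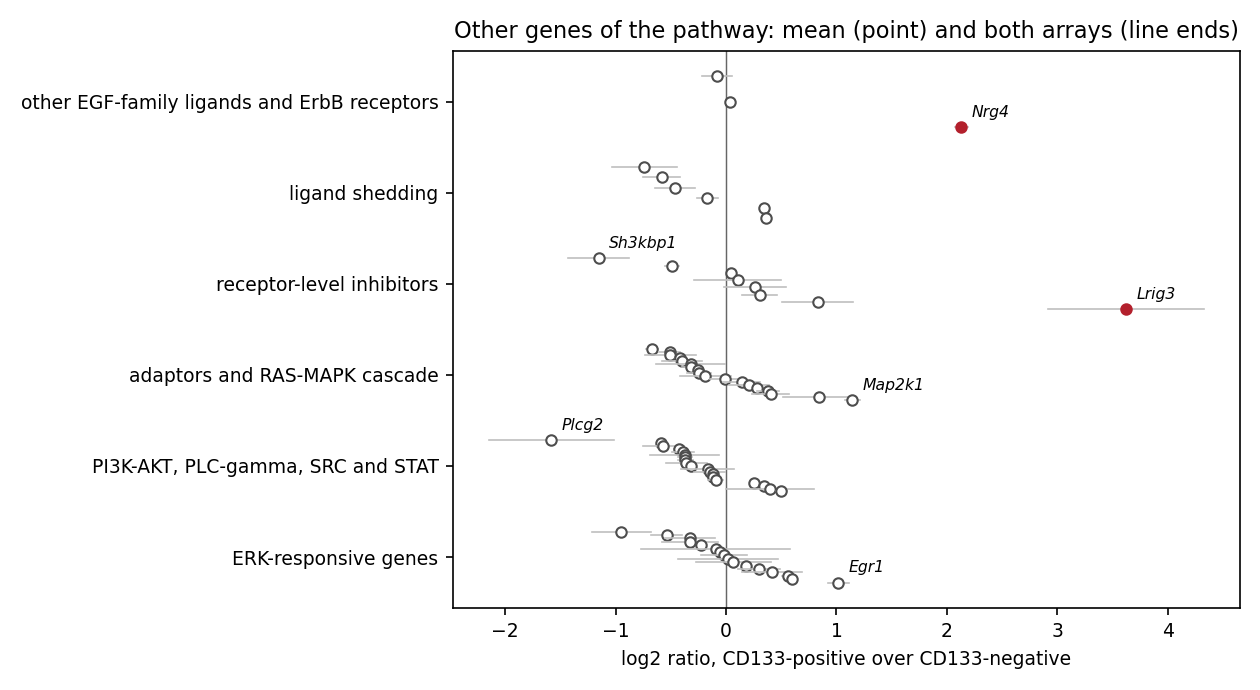
Mean log2 ratio of CD133-positive over CD133-negative cells (horizontal axis, points) for the 70 tested genes of the 6 pathway lists (rows), each with a grey line between its values on both arrays. Filled points are the 2 genes past the limma threshold, Nrg4 and Lrig3. Names are given for these and for genes with a mean beyond 1 in size. Of these Egr1 was at -0.10 with centring on all non-control probes in place of loess, or 0.65 relative to the median of tested genes.

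Genes with the most similar pair of array ratios were looked up for the highest and the lowest gene of the family, by Euclidean distance over 2 arrays and among genes with a plain symbol. For Btc they were Kbtbd11 (distance 0.10), Phgr1 (0.14) and Nlrp10 (0.15), each also near 2 on array 1 and near 0 on array 2, and 0 tested genes lay within 0.1. For Egfr they were Afdn (0.02), Dmxl2 (0.03) and Snord22 (0.03), and 33 tested genes lay within 0.1. Likeness over 2 arrays is a description of these ratios only.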

How the data were processed

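Per the file headers, scans were read by Agilent Feature Extraction 9.5.3.1. The authors deposited spot and background brightness as intensity, and the series' value table holds the deposited log10 ratio of CD133-negative over CD133-positive cells, equal within 1e-09 to the program's own on 45018 of 45018 spots, so dye-normalised by the program, with a median of 0. RNA was amplified before labelling, per the labels' protocols, which can change relative levels. From mean brightness, background was corrected by normexp (offset 50), arrays normalised by loess with control spots at weight 0, and spots of a probe averaged. A probe was tested if over 0.5 of its spots met the background flag and fewer carried outlier flags. Of the probes, 22951 were named by accession and 9768 by symbol or synonym in a RefSeq table (GRCm38.p6, for names alone), and for 8455 the files' own name stood. limma 3.58.1 in R 4.3.3 fitted the mean ratio, two-sided, with 1 residual degree of freedom and Benjamini-Hochberg adjustment over 15267 genes, and the code was tested on simulated data. The number of arrays limits the precision.

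The genes, lists and rules were chosen with earlier results of these data known. The text names all 10 genes and their probes, from each pathway list the 3 tested genes of largest mean ratio with 1 direction on both arrays, every called pathway gene, and 3 nearest genes for the highest and lowest gene. Some genes that this rule picks are not reported here. Protein sequences were not used here, so a planned description of the EGF-like motif was not run. Alternatives changed background correction, normalisation, filter, probe choice and variance model.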

Additional observations from a re-analysis of the deposited data

How the results depend on the processing

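No alternative other than centring in place of loess gave a call among the 10 genes. Centring on the median of all non-control probes gave 4 called genes of the family (Egfr, Nrg1, Tgfa and Erbb2, lower), and centring on the tested genes gave 3 (Egf higher, Egfr and Nrg1 lower). For the 70 pathway genes the count of 2 became 56 and 17 under these centrings, 5 with an intensity trend in the variance, 5 with 4 channels as separate samples, 1 with the dimmest tested probe, 0 without a filter on dim probes and 0 without moderation of the variance, where 1506 of all tested genes were at an unadjusted p under 0.05. Centring on all non-control probes turned the sign of Areg (-0.60), Egf (-0.0894), Erbb2 (-0.88), Erbb3 (-0.76), Hbegf (-0.32), Erbb4 (-0.81), Errfi1 (-0.22), Egr1 (-0.10) and Phlda1 (-0.46), while the median of tested genes there was -0.75. Centring on the tested genes turned Erbb2 (-0.15), Erbb3 (-0.0264), Erbb4 (-0.0761) and Ereg (0.52), and the dimmest probe turned Nrg1 (0.0163). The cause was not tested, except that for Nrg1 the dimmest probe is another probe. All other ratios in these alternatives kept their sign, among them Egfr (-1.63 to -0.29) and Btc (0.56 to 1.66). Over all tested genes the number called was 256, against 30 without the filter, 156 with the dimmest probe, 483 with processed signals, 559 with offset 16, 509 with scaling between arrays, 837 with the trend, 944 with 4 channels, 4007 and 10147 with centring, and 512 with median in place of mean spot brightness, which was chosen after seeing the data. Single arrays gave values with no test, those printed for each gene. The fit on ratios within an array is itself paired by array. No further fit with a replicate block could be made, since each array gives 1 ratio. Signal over background limits Ereg, Egf and the second probes of Btc and Erbb3.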
